A study of Homo sapiens with 3 samples.

Results

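The DNA replication and nucleotide supply genes examined here are 42 genes picked by symbol, and all 42 were among the 17448 genes of the deposited table. They encode the proteins that mark replication origins, load and start the helicase, copy and join DNA, and make deoxynucleotides. Bulk RNA came from H128, an established human small-cell lung cancer (SCLC) line, 48 h after transfection with the control siRNA siCont or with an siRNA against ESRRG, the gene of the nuclear receptor ERRγ. The 3 libraries are named siCont, siERRG2 and siERRG3 as in the labels, with 1 library per condition and no further treatment, so no difference below has a replicate check and no p-value is given. The cells are 1 line, and the knockdown was transient and left residual ESRRG. Where 3 counts of a gene stand together below, their order is siCont, siERRG2, siERRG3. ESRRG itself had 806, 211 and 230 estimated read counts, ratios to siCont of 0.259 (0.221 to 0.302) and 0.281 (0.241 to 0.325), where the brackets hold 95% intervals of counting error. Which siRNA sequence each ESRRG library received is not given in the sources used here. Of the neuroendocrine SCLC markers, NEUROD1 had 7395, 7020 and 4073 counts, SYP 5279, 5169 and 3779, and CHGA 3282, 3750 and 2751, each lowest in siERRG3. INSM1 had 10359, 5279 and 9168 counts and CHGB 3645, 2756 and 3312, both lowest in siERRG2, and NCAM1 had 7173, 6567 and 8136. Markers of other SCLC subtypes were near 0, where POU2F3 had 6 to 11 and YAP1 1 to 3. PTPRC of leukocytes had 21 to 29, PECAM1 of endothelium 20 to 27, and of the mesenchymal genes COL1A1 had 181, 127 and 132 and VIM 1091, 1506 and 1488, higher in both ESRRG libraries. The part of these markers in the results was not tested.

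Replication starts at origins bound by the origin recognition complex (ORC), where CDC6 and CDT1 load the MCM2-7 helicase in G1. In S phase CDC45 and GINS join the helicase and the DNA is unwound. DNA polymerases α, δ and ε copy the strands, the sliding clamp PCNA holds δ and ε, and RPA covers exposed single strands. Many of these genes are textbook targets of the E2F transcription factors, which the RB protein holds back, and loss of RB1 is a hallmark of SCLC.

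The promoters of these genes hold E2F motifs far more often than promoters at large. A promoter is taken here as 250 bases before to 50 bases after the annotated gene start (RefSeq, GRCh38.p14), and 36 of the 42 genes had one in the table used. Not included were MCM4, MCM5, GINS4, POLD3, RPA2 and RPA3. The E2F motif was searched on both strands as TTTCCCGC, TTTGGCGC, TTTGCCGC or TTTCGCGC, which can overlap one another. It was present in 18 of the 36 promoters, against 5.26% of the 11295 promoters of tested genes and 3.33% of all 27305 promoters. At least 2 matches were found in 4 promoters, those of MCM2, MCM3, MCM6 and MCM7. Of the 24 matches, 16 began within 60 bases of the gene start. The CCAAT box, searched as CCAAT on both strands, was in 21 of the 36 promoters (58.3%), against 36.6% of those of tested genes. The ERR response element, searched as TCAAGGTCA, TGAAGGTCA, TAAAGGTCA or TTAAGGTCA, was in 0 of the 36 and in 0.478% of those of tested genes. Median GC content was 65.3% in the 36 promoters and 65.0% in those of tested genes. A match is a string of letters, not a measured binding site.

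**Figure D1:**
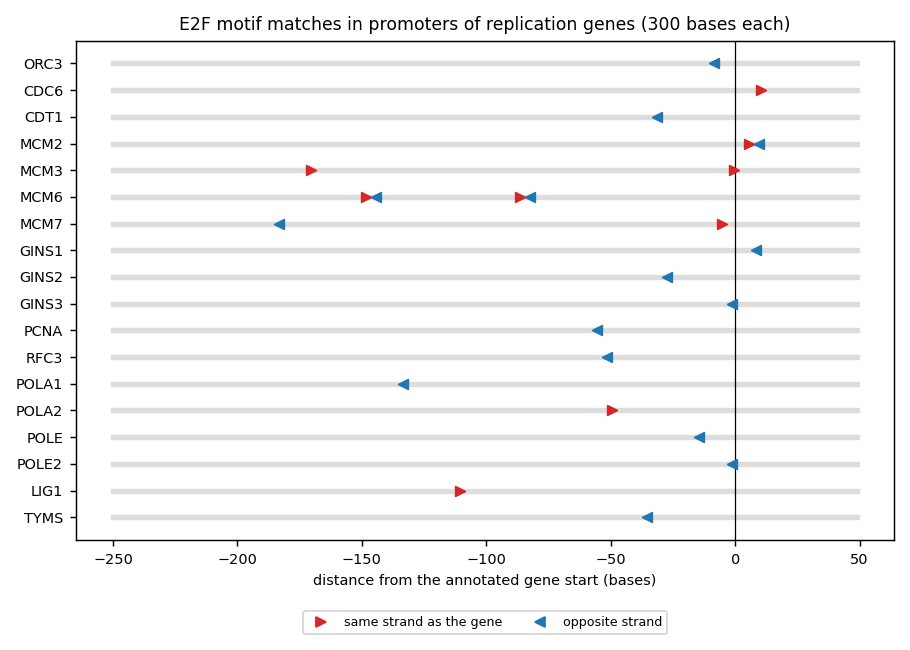
E2F motif matches in the 18 promoters that held at least 1. Grey lines are the promoter windows, the x axis gives the distance from the annotated gene start in bases, and arrowheads mark matches on the same strand as the gene (right-pointing) or the opposite strand (left-pointing); 16 of 24 matches begin within 60 bases of the start.

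The promoters of 5 genes are given 5′ to 3′ on the strand of the gene, with E2F motifs and CCAAT boxes in capitals. They were picked from the genes that hold an E2F match and were called in at least 1 comparison. CDT1, LIG1, GINS1, ORC3 and POLA1 also met this and are not shown. MCM2 (chr3:127598161-127598460, plus strand) and MCM6 (chr2:135876394-135876693, minus strand) have overlapping E2F matches on both strands. MCM3 (chr6:52284693-52284992, minus strand) has 1 E2F match at its start and 1 farther upstream, with a pair of its CCAAT boxes between them. GINS3 (chr16:58392221-58392520, plus strand) and TYMS (chr18:657403-657702, plus strand) each have 1 E2F match. Other genes called in at least 1 comparison had 0 E2F matches in their promoters. Of these, ORC4, ORC5, RFC2, RFC4, POLD1 and TK1 also had 0 CCAAT boxes, while ORC2, ORC6, POLD2 and RRM2 held CCAAT boxes.
MCM2: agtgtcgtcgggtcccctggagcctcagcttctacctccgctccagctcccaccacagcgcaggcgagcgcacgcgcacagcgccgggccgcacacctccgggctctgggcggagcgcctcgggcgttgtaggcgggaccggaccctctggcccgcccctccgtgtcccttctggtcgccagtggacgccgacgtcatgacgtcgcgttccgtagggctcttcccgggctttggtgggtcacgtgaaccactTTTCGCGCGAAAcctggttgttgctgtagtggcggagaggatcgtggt
MCM3: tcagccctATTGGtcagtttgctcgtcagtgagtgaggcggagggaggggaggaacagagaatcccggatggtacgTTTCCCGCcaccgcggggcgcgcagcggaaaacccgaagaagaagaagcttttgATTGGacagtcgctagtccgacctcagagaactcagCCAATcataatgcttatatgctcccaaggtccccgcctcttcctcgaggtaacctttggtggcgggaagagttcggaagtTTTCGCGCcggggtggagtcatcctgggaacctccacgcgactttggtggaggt
MCM6: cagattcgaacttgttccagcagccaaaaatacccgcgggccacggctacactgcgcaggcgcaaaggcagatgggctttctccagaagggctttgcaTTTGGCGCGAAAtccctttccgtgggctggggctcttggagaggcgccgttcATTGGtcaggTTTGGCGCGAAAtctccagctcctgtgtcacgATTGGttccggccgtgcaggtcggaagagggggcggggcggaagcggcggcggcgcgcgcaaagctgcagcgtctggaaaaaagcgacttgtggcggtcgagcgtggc
GINS3: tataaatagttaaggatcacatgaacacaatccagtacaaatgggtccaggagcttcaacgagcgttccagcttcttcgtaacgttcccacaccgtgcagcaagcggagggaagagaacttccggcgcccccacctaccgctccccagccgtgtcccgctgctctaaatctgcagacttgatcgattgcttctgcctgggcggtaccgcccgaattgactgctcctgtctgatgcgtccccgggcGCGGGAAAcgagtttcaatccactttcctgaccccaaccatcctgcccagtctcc
TYMS: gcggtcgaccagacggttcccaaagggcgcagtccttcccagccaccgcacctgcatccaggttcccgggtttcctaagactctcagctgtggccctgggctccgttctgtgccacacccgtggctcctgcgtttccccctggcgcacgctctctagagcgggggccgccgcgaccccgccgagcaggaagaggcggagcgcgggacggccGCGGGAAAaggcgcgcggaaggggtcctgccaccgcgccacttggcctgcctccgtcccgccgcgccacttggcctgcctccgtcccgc

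H128 cells expressed every one of the 42 genes. Their estimated counts ranged from 316 (GINS4 in siERRG3) to 13038 (ORC4 in siERRG2), and all 42 passed the filter of at least 10 counts in at least 1 library. Together they took 126238 of 19861937 counts in siCont (0.636%), 124380 of 19900580 in siERRG2 (0.625%) and 122246 of 20016780 in siERRG3 (0.611%). Levels can be compared between genes only per length, for which the authors' FPKM values (counts per transcript length and library size) were used. The median FPKM of the 42 genes in siCont was 34.2, against 8.02 over the 14031 tested genes, and 41 of the 42 lay above that median. PCNA was highest at an FPKM of 242, followed by MCM7 at 221 and POLD2 at 212, and GINS4 was lowest at 5.08. Subunits of 1 complex were not at 1 level. In siCont the FPKM of MCM7 was 3.83 times that of MCM5 within the helicase, and that of ORC4 was 8.26 times that of ORC3 within ORC.

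Between the 3 libraries, 19 of the 42 genes had a highest library under 1.2 times the lowest after scaling, and 5 reached 1.5 times. The log2 fold change is the difference in log2 CPM, that is, counts after adjustment for library size with TMM factors. Calls of lower or higher were made from a 1.2-fold difference, the threshold of the study. In siERRG2, 7 of the 42 genes (16.7%) were lower than in siCont and 4 (9.52%) were higher, while over all tested genes 19.2% were lower and 16.4% higher. All 42 genes averaged above 300 counts, and among the 8726 genes that did so 12.6% were lower and 10.4% higher. In siERRG3, 9 (21.4%) were lower and 4 (9.52%) higher, against 25.1% and 23.2% of all tested genes, and 23.0% and 17.0% of those with at least 300 counts. The median log2 fold change of the 42 genes was -0.009 in siERRG2 and 0.040 in siERRG3, against 0.008 and -0.013 over the genes with at least 300 counts. In siERRG2 the share called lower was thus 16.7% against 12.6%, and in siERRG3 it was 21.4% against 23.0%, and the medians were near 0. Both comparisons use the same siCont library and are not independent. In bulk RNA, fewer cells in S phase and less RNA per cell cannot be told apart.

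The ORC subunits, which recognise origins, had log2 fold changes above 0 in siERRG2 for all 6, from 0.07 (ORC1) to 0.38 (ORC5). Of these, 3 were called higher, as were 10.4% of all genes with at least 300 counts. ORC5 had 1055, 1389 and 1392 counts, so both ESRRG libraries lay above siCont, each with a ratio of 1.3 and a 95% exact binomial (Clopper-Pearson) interval of 1.2 to 1.41. These intervals compare libraries, not conditions. ORC3 had 518, 644 and 624 counts, and ORC6 had 830, 1018 and 944. Each passed the threshold in siERRG2 and stood below it in siERRG3. ORC1, the largest subunit, had 1221, 1293 and 1444 counts and was not called in any comparison. ORC2 had 995, 1173 and 883 counts, with siCont in the middle.

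ORC4 stood apart from the other subunits. It had 11039, 13038 and 5862 counts, a ratio to siCont of 1.17 (interval 1.14 to 1.2) in siERRG2 and of 0.522 (0.506 to 0.539) in siERRG3. Its FPKM stood at 4.39, 4.89 and 1.96 times the median of the other ORC subunits. RefSeq places ORC4 at chr2:147930396-148021551 of GRCh38.p14. The counts of ORC4 were fractional, and in the table it overlaps ACVR2A, with 355, 429 and 391 counts, and MBD5, with 107, 115 and 94.

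Of the loading factors, CDT1 was higher in both ESRRG libraries and CDC6 in neither. CDT1, which brings MCM2-7 to ORC, had 2008, 2446 and 2831 counts. The log2 fold change of CDT1 was 0.27 in siERRG2, close to the threshold, and 0.47 in siERRG3, where its ratio was 1.39 (1.31 to 1.47). Its span overlaps APRT, with 1860, 2017 and 2156 counts. CDC6, the ATPase that works with it, had 1656, 1733 and 1812 counts and was not called.

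The MCM2-7 helicase subunits had log2 fold changes below 0 in siERRG2 for all 6, from -0.37 (MCM6) to -0.03 (MCM4). MCM2 and MCM6 were called lower, as were 12.6% of all genes with at least 300 counts. MCM2 had 6035, 5054 and 6383 counts, with a ratio of 0.828 (0.797 to 0.86) in siERRG2 only slightly past the threshold. MCM6 had 4438, 3483 and 4098 counts. Both were lowest in siERRG2. MCM4 had 7167, 7104 and 8451 counts, MCM5 had 2928, 2789 and 3367, and MCM7 had 11177, 10173 and 11400. These subunits were highest in siERRG3 and within the threshold against siCont throughout.

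MCM3 departed from its partners in siERRG3. It had 5670, 5161 and 2684 counts, a ratio of 0.9 (0.866 to 0.935) in siERRG2 and of 0.465 (0.444 to 0.487) in siERRG3, the lowest ratio of the 42 genes. Its FPKM was 1.19 times the median of the other helicase subunits in siCont and 1.11 times in siERRG2, but 0.477 times in siERRG3. MCM3 lies at chr6:52264015-52284742, its counts were whole numbers, and the only gene of the table whose span overlapped its own, IL17F, had at most 1 count in a library. The 5 other subunits had log2 fold changes between -0.14 and 0.21 in the same library.

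Of the 6 helicase activators, 0 were called in siERRG2 and 3 were lower in siERRG3. All 3 were GINS subunits. Among all genes with at least 300 counts, 23.0% were lower in siERRG3. GINS3 had 966, 1086 and 537 counts, with a ratio of 0.547 (0.491 to 0.608) in siERRG3. GINS1 had 1211, 1297 and 881 counts (log2 fold change of -0.48 in siERRG3), and GINS4 had 385, 447 and 316 (-0.31). In each of them siERRG2 was the highest library and siERRG3 the lowest, and their counts were not all whole numbers. The fourth subunit, GINS2, was not called, with 1374, 1326 and 1490 counts, and the FPKM ratio of GINS3 to GINS2 was 0.372, 0.435 and 0.194 in the same library order. The tetramer holds 1 copy of each. CDC45, which binds the helicase with GINS, had 1127, 1033 and 1190 counts. MCM10, which helps the assembled helicase to start, had 1550, 1702 and 1458. Neither was called.

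**Figure D2:**
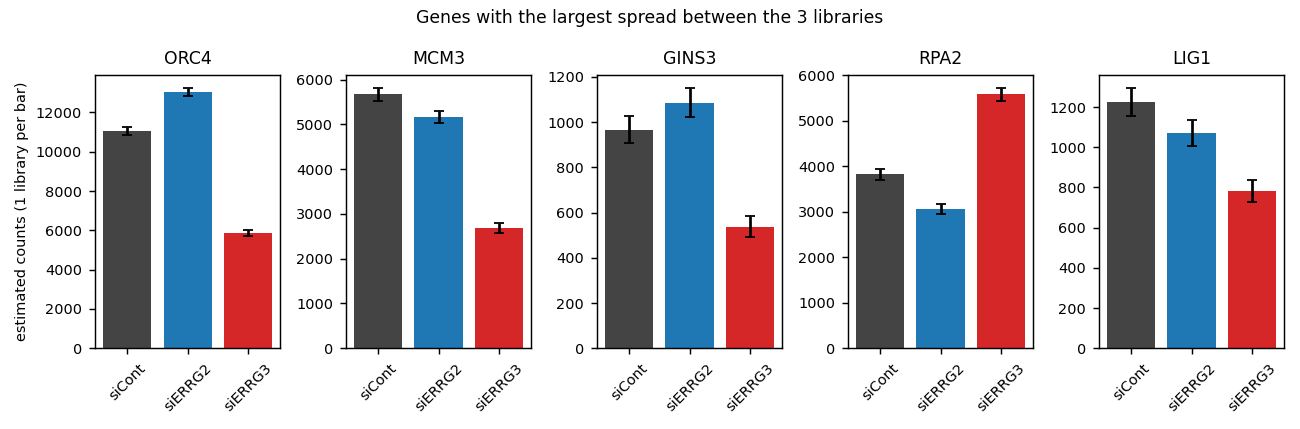
Estimated counts in the 3 libraries for the 5 genes whose highest library was at least 1.5 times the lowest after scaling, with 95% exact Poisson intervals that cover counting error only (1 library per bar, y axes from 0). ORC4, MCM3, GINS3 and LIG1 are lowest in siERRG3, and RPA2 is highest there with 5584 counts.

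The sliding clamp differed little. PCNA had 6295, 6518 and 6514 counts, and its highest library was 1.02 times its lowest after scaling. Counting intervals of its ratio to siCont were 0.989 to 1.06 and 0.983 to 1.05. Of the clamp loader subunits, which open PCNA and place it on DNA, RFC5 was as steady, with 1146, 1135 and 1167 counts. RFC3 had 1879, 1972 and 1808 counts and RFC1, the large subunit, had 2472, 2939 and 2757. Neither was called. RFC4 had 938, 1120 and 1228 counts and was called higher in siERRG3, with a ratio of 1.29 (1.18 to 1.4). RFC2 had 3203, 2818 and 3810 counts, lowest in siERRG2 and highest in siERRG3, and within the threshold against siCont in both.

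Of the polymerase genes among the 42, those called against siCont were subunits of DNA polymerase δ, which makes the lagging strand. Among all genes with at least 300 counts, 12.6% were lower in siERRG2 and 23.0% in siERRG3. POLD1, its catalytic subunit, had 1883, 1455 and 1430 counts, so both ESRRG libraries lay below siCont, with ratios of 0.764 (0.713 to 0.818) and 0.747 (0.697 to 0.8). The counts of POLD1 were not all whole numbers. In the table it overlaps NR1H2, with 412, 380 and 471 counts, and SPIB, with 47, 41 and 78. The accessory subunit POLD2 had 7009, 5576 and 6003 counts, called lower in siERRG2 with a log2 fold change of -0.35 and just short of the threshold in siERRG3 with -0.25. POLD3, a further accessory subunit, was not called and had 1118, 1103 and 1289 counts. For polymerase α, which starts new strands with primase, POLA1 had 1850, 1569 and 1998 counts and POLA2 had 2078, 2045 and 2092. For polymerase ε, which makes the leading strand, POLE had 1598, 1454 and 1700 counts and POLE2 had 682, 778 and 723. Their log2 fold changes to siCont lay between -0.25 (POLA1 in siERRG2) and 0.17 (POLE2 in siERRG2). POLE3 and POLE4, further subunits of polymerase ε outside the 42, were called. POLE3 had 3662, 4449 and 3609 counts and was higher in siERRG2 only, with a ratio of 1.2 (1.15 to 1.26). POLE4 had 191, 121 and 245 counts. It was lower in siERRG2, with a ratio of 0.626 (0.495 to 0.791), and higher in siERRG3, with 1.26 (1.04 to 1.53).

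RPA2, the middle subunit of the single-strand binding protein, was the 1 gene of the 42 called in opposite directions against siCont. It had 3822, 3069 and 5584 counts, with ratios to siCont of 0.794 (0.757 to 0.833) and 1.44 (1.38 to 1.5). It lies at chr1:27891524-27914797 and its counts were whole numbers. RPA1, the large subunit, had 4084, 4198 and 4644 counts, and RPA3, the small subunit, had 1129, 1077 and 1163, and neither was called. The FPKM ratio of RPA2 to RPA1 was 1.87, 1.47 and 2.41 in the same library order.

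In Okazaki fragment maturation, LIG1 was lower in siERRG3 and FEN1 was not called. LIG1, the ligase that seals the fragments, had 1226, 1070 and 782 counts, with a ratio of 0.627 (0.573 to 0.687) in siERRG3. FEN1, the nuclease that trims their flaps, had 3162, 3528 and 3148 counts. LIG1 was 1 of 4 genes, with MCM3, ORC4 and GINS3, that were at least 1.5-fold lower in siERRG3, which is 4 of 42 (9.52%) against 7.55% of the genes with at least 300 counts.

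Both routes to thymidylate were lower in both ESRRG libraries. TYMS, which makes dTMP from dUMP and is the target of fluorouracil, had 3929, 3291 and 2885 counts, with ratios of 0.828 (0.79 to 0.868) and 0.722 (0.688 to 0.758). TK1, which salvages thymidine, had 1053, 792 and 855 counts, with ratios of 0.744 (0.677 to 0.816) and 0.798 (0.729 to 0.875). For each of them siCont was the highest library. TYMS in siERRG2 only slightly passed the threshold. With total-count scaling its log2 fold change there was -0.26, as was that of MCM2, both short of the threshold of 0.263, and 5 in place of 7 of the 42 genes were lower. The counts of both were not whole numbers, and in the table TYMS overlaps YES1 (1305, 1462 and 1410 counts), ENOSF1 (428, 396 and 314), TYMSOS (84, 113 and 114) and CLUL1 (2, 4 and 6). TK1 overlaps SYNGR2, with 1231, 1290 and 1575 counts, and AFMID, with 761, 710 and 822. Of ribonucleotide reductase, which makes deoxynucleotides from ribonucleotides, the subunits among the 42 were not called against siCont. RRM1 had 6207, 6330 and 6773 counts and RRM2, the S-phase subunit, had 6125, 7154 and 5846. The FPKM ratio of RRM2 to RRM1 was 0.978, 1.11 and 0.852 in the same library order. RRM2B, a further subunit outside the 42, had 342, 419 and 306 counts. It was called higher in siERRG2, with a ratio of 1.21 (1.05 to 1.40).

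The ESRRG libraries can also be set against each other without siCont. In siERRG3, 8 of the 42 genes (19.0%) were lower than in siERRG2 and 5 (11.9%) were higher, against 25.3% and 26.4% of all tested genes and 24.0% and 19.7% of those with at least 300 counts. The lower genes were ORC2, ORC4, MCM3, GINS1, GINS3, GINS4, LIG1 and RRM2. ORC4 had the lowest ratio, 0.447 (0.434 to 0.461), followed by GINS3 with 0.492 (0.443 to 0.546) and MCM3 with 0.517 (0.494 to 0.542). The higher genes were MCM2, MCM5, RFC2, POLA1 and RPA2, with ratios from 1.2 (MCM5) to 1.81 (RPA2). POLD1, TK1, CDT1, ORC5 and TYMS were picked because each was called in the same direction in both ESRRG libraries against siCont. Between the ESRRG libraries they had log2 differences of -0.20 to 0.20 and were not called. That choice favours small differences, so their likeness is no independent check. The 18 genes with an E2F motif in the promoter had a median log2 fold change of -0.054 in siERRG2 and 0.015 in siERRG3, and the 18 without one had 0.092 and 0.028.

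A list of 80 further genes (licensing control, fork proteins, chromatin assembly, folate and nucleotide enzymes) had 10 lower and 5 higher in siERRG2, and 9 lower and 10 higher in siERRG3, with medians of -0.006 and -0.009. These are 12.5% and 6.25% in siERRG2, against 19.2% and 16.4% of all tested genes, and 12.6% and 10.4% of those with at least 300 counts. In siERRG3 they are 11.2% and 12.5%, against 25.1% and 23.2% of all tested genes, and 23.0% and 17.0% of those with at least 300 counts. Some of the further genes averaged below 300 counts. In siERRG2 the lowest were TIMELESS, a fork protection protein, with 2388, 1255 and 1858 counts, and ATIC, an enzyme of purine synthesis, with 3213, 1952 and 4065. The highest there were MTBP, which takes part in origin firing, with 155, 199 and 140 counts, and CTPS2, a CTP synthase, with 441, 554 and 257. In siERRG3 the lowest were RAD17, which loads the checkpoint clamp, with 670, 634 and 263 counts, and CMPK1, a pyrimidine nucleotide kinase, with 2901, 3298 and 1562. TIPIN, the partner of TIMELESS, was highest with 658, 623 and 1071 counts, followed by the histone chaperone ASF1A with 1177, 1141 and 1670. TIMELESS and TIPIN, which form 1 complex, thus lay apart in siERRG3, at -0.39 and 0.68 on the log2 scale.

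Of 25 genes of G2 and mitosis, 4 were lower and 0 higher in siERRG2, where 19.2% and 16.4% of all tested genes were, and 12.6% and 10.4% of those with at least 300 counts. In siERRG3, 10 were lower (40.0%) and 0 higher, against 25.1% and 23.2% of all tested genes, and 23.0% and 17.0% of those with at least 300 counts. The median log2 fold changes were -0.11 and -0.20. In siERRG2 the lowest were CCNB2, a mitotic cyclin, with 2732, 1672 and 2015 counts, and BIRC5 (survivin), with 3986, 2842 and 2867. The highest there, ANLN with 2140, 2466 and 1956 counts and CDK1 with 2535, 2867 and 2381, were within the threshold. In siERRG3 the lowest were BUB1, a spindle checkpoint kinase, with 1957, 2023 and 1054 counts, and the proliferation marker MKI67, with 9222, 8149 and 5214. NUSAP1 (4660, 4750 and 4901 counts) and CDC20 (3949, 3600 and 4058) were highest there and not called. The part of these genes in the differences of the replication genes was not tested.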

How the data were processed

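RNA of H128 cells was sequenced in 3 libraries. The deposited estimated counts carry no normalization, and the authors' FPKM values, whose unit the table does not name, are scaled for transcript length and library size. Deposited log2 ratios and Poisson p-values of the authors were not used. The methods name BWA and Bowtie 2 with GRCh37/hg19, whereas the submitters' processing notes list TopHat2, HTSeq and DESeq2 with GRCh38, hg19 and hg38, and the table's coordinates are GRCh38. Gene positions in the text are those of RefSeq, because the spans in the table exceeded them by over 1.5 times for 27 of the 42 genes and its strand differed for 7 of the 36 that could be compared. Whether counting used strand is not given in the sources used here. Spans of 36 of the 42 genes overlapped another gene of the table, and 20 genes had counts that were not all whole numbers; how their reads were divided is not given in the sources used here.

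Counts were rounded and summed to 19861937 (siCont), 19900580 (siERRG2) and 20016780 (siERRG3). The 14031 genes that reached 10 counts in any library were scaled with TMM in edgeR 4.0.16 (R 4.3.3), with factors of 0.994 to 1.003, and log2 CPM used a prior count of 2. Intervals of count ratios are 95% exact binomial (SciPy 1.17.1), scaled by effective library size, and Poisson intervals are exact. They cover counting error only. With 1 library per condition no test was made. The computations were tested on simulated data. The members and lists were chosen with earlier results of these data known, and the limit of 300 counts was added after seeing the data. All 42 genes are named. Of the further lists, the 2 lowest and 2 highest genes of each ESRRG library are named among those averaging 50 counts or more. POLE3, POLE4 and RRM2B are named in addition. Of the 81 further genes and the cell type markers, 1 of each is not reported here. Alternatives were total-count scaling, DESeq2 1.42.0 size factors, FPKM with a pseudocount of 0.1, a prior count of 0.5, unrounded counts, no filter, a mean of at least 50 counts, a 1.5-fold threshold and a counting interval that excludes 1.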

Additional observations from a re-analysis of the deposited data

Results flagged for a closer look

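RPA2 had opposite directions in the ESRRG libraries, lower than siCont in siERRG2 and higher in siERRG3, with a log2 difference of 0.86 between siERRG3 and siERRG2. With 1 library each, the difference was not tested.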

How the results depend on the processing

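The 630 recomputed log2 fold changes of the 42 genes, under total-count scaling, DESeq2 size factors, FPKM, a prior count of 0.5 and unrounded counts, all stayed within their counting intervals, and 0 of the called ones changed sign. The counts of genes called moved by at most 1.5 times under these alternatives, without the filter, with a mean of at least 50 counts and with the added interval condition, with the exception of the 80 further genes with FPKM, where 9 in place of 5 were higher in siERRG2. The threshold itself mattered most. At 1.5-fold, 0 of the 42 genes were lower and 0 higher in siERRG2, and 4 were lower and 0 higher in siERRG3. In siERRG3 against siERRG2, 3 were lower and 1 higher. Of the 8726 genes with at least 300 counts, 238 were lower and 57 higher in siERRG2, and 659 and 273 in siERRG3. For siERRG3 against siERRG2, 692 of them were lower and 421 higher. For the 80 further genes at 1.5-fold, 3 were lower and 0 higher in siERRG2, and 6 were lower and 1 higher in siERRG3. In siERRG3 against siERRG2, 6 of the 80 were lower and 4 higher. Of all 14031 tested genes, 978 were lower and 602 higher in siERRG2, and 1396 and 1188 in siERRG3. For siERRG3 against siERRG2, 1404 of the tested genes were lower and 1501 higher. The genes of the 42 called in the same direction in both ESRRG libraries are named above. Their share beside that of all genes is not given, because both comparisons share siCont. No library could be left out, and no paired analysis was possible because each condition has 1 library. Depth limits GINS4 most among the 42 genes, whose ratio in siERRG3 had an interval of 0.693 to 0.939.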
